A study of Mus musculus with 6 samples.

Results

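The genes described here encode the ectonucleotidases, the enzymes that break down nucleotides outside cells or in the secretory pathway, with the last enzyme of adenosine formation. They were chosen by name: Entpd1, Entpd2, Entpd3, Entpd4, Entpd5, Entpd6, Entpd7, Nt5e, Enpp1 and Enpp2. Of these 10, 8 were the single gene of a probeset, each with 1 probeset, out of 19288 genes so named on 26851 probesets. Enpp1 and Enpp2 were not analysed here. Expression was measured with Affymetrix gene-level arrays on total RNA of cultured mouse embryonic fibroblasts, harvested with trypsin, 3 arrays with the control hairpin shSCR and 3 with the hairpin shARF, which is named for the tumour suppressor ARF of the Cdkn2a locus. Both groups share the background named dp53R in the series title and Ras in the titles of the samples. The labels do not expand these names, and they give no age, no promoter for the hairpins and no word on clones. Replicates are called biological, with no word on separate cultures or animals, so the p-values measure only the spread between these samples, which may be technical.

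ATP that leaves a cell acts as a signal on P2 receptors, and surface enzymes end that signal in steps. NTPDases of the plasma membrane, made by Entpd1, Entpd2 and Entpd3, remove phosphates from ATP and ADP, and the ecto-nucleotidase made by Nt5e turns the resulting AMP into adenosine, which acts on its own receptors. The NTPDases made by Entpd4 and Entpd7 sit in membranes inside the cell, and those made by Entpd5 and Entpd6 work in the lumen of the secretory pathway or are released. The product of Nt5e is a familiar surface marker of stromal cells.

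Entpd1 and Entpd7 were the 2 genes of the family that passed the test, and the sequences just before their starts are shown here for that reason. Of the 10 listed genes, 8 had a promoter entry in the RefSeq table (build GRCm38.p6), Entpd1 with 2 starts. The 250 bases before each start of Entpd1 and Entpd7 follow, 5′ to 3′ on the + strand, with matches to the searched motifs in capitals. The Entpd1 windows are chr19:40612116-40612365 and chr19:40659520-40659769, and the Entpd7 window is chr19:43689439-43689688.
Entpd1, start 1: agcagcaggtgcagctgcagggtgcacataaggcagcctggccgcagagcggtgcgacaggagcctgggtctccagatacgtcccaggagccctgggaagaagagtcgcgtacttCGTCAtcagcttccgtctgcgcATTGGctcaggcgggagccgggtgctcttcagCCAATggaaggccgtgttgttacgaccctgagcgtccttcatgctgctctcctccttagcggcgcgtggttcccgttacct
Entpd1, start 2: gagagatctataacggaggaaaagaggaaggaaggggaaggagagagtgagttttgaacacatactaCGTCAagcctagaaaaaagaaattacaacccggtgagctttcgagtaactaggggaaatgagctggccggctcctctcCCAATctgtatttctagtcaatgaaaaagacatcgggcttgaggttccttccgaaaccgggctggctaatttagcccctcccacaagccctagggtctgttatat
Entpd7: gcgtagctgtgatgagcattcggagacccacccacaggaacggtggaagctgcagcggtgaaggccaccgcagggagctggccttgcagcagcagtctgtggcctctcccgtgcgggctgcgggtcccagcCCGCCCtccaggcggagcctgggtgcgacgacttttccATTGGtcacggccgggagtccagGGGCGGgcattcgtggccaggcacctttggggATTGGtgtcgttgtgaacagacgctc
The motifs, searched on both strands, were the core of the interferon response element (GAAA, any 2 bases, GAAA), the cyclic AMP response element TGACGTCA and its shorter form TGACG, the AP-1 element TGANTCA, the GC box GGGCGG and the CCAAT box CCAAT. Matches of TGACG inside TGACGTCA were not counted again for these windows. CCAAT was present in each of the 3 windows, at bases 113 to 109 and 81 to 77 before start 1 of Entpd1, 105 to 101 before its start 2, and 81 to 77 and 26 to 22 before the start of Entpd7. Of 32851 windows of that length in the table, 33.8% held CCAAT. The shorter form TGACG stood at bases 135 to 131 before start 1 and 183 to 179 before start 2 of Entpd1, and 17.8% of all windows held it. Entpd7 had the GC box at bases 119 to 114 and 58 to 53, against 32.7% of all windows. Neither the interferon core (2.98% of windows), TGACGTCA (1.55%) nor TGANTCA (6.75%) occurred in the 3 windows. Among the other listed genes with a promoter entry, CCAAT occurred before Entpd3 and TGACG before Entpd5, Entpd6 and Enpp1. The GC box occurred before Entpd2, Nt5e and Enpp1, so these 3 motifs were not particular to the genes that rose. These are matches of letters only, and the single Entpd1 probeset does not separate transcripts by start.

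The gene of the hairpin's target, Cdkn2a, was lower on every shARF array. The locus makes ARF and the cell cycle inhibitor p16Ink4a, and its 1 probeset is named only by the gene, so these transcripts were not separated. Cdkn2a gave signals of 535, 539 and 516 in shSCR and 315.4, 254 and 286 in shARF replicates 1, 2 and 3, a log2 difference of -0.90 ± 0.086 (SE; limma, adjusted p = 0.00459). Signals are the authors' normalized values on a linear scale, and array medians were 41.97 to 42.86. A gene was tested where it exceeded the detection level, the 25th percentile of its array (14.1 to 14.9 in signal), on at least 3 of the 6 arrays. It was called at an adjusted p under 0.05, and in all 15145 tested genes 607 were called. Arrays are limited in precision by their number, 3 per group. The cells carried fibroblast transcripts: all 10 fibroblast markers lay above the detection level on every array, and their summed signal, to which Vim, Fn1 and S100a4 gave the most, was 22188 to 23835 on the shSCR and 23975 to 24670 on the shARF arrays. Of these 10 markers 0 were called, and 7 had groups that did not overlap, against 28.6% of all tested genes. Dcn differed by 0.71, Thy1 by -0.38 and Pdgfra by -0.22 on the log2 scale (limma, adjusted p = 0.0625, 0.0874 and 0.155). Col1a1, Col3a1, Fn1 and S100a4 were, like Dcn, higher on every shARF array, by 0.18, 0.30, 0.13 and 0.16.

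Entpd1 rose and Nt5e, which acts after it, did not pass the test. Of the 7 genes of the family that were tested, 2 rose (Entpd1 and Entpd7), 0 fell and 5 did not pass. Among all tested genes 1.62% were called higher and 2.38% lower, 4.01% in either direction. The family was chosen with earlier results of these data known, so its counts beside all tested genes are descriptions only. Groups did not overlap for 2 of the 7, against 28.6% of all tested genes. The median log2 difference of the 7 was -0.04, beside -0.01 over all tested genes. At an unadjusted p under 0.05 limma gave 3 of the 7 higher and 0 lower, beside 8.76% of all tested genes higher and 13.4% lower. These are bulk cultures, in which more or fewer cells with a transcript and more or less RNA per cell cannot be told apart.

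**Figure D1:**
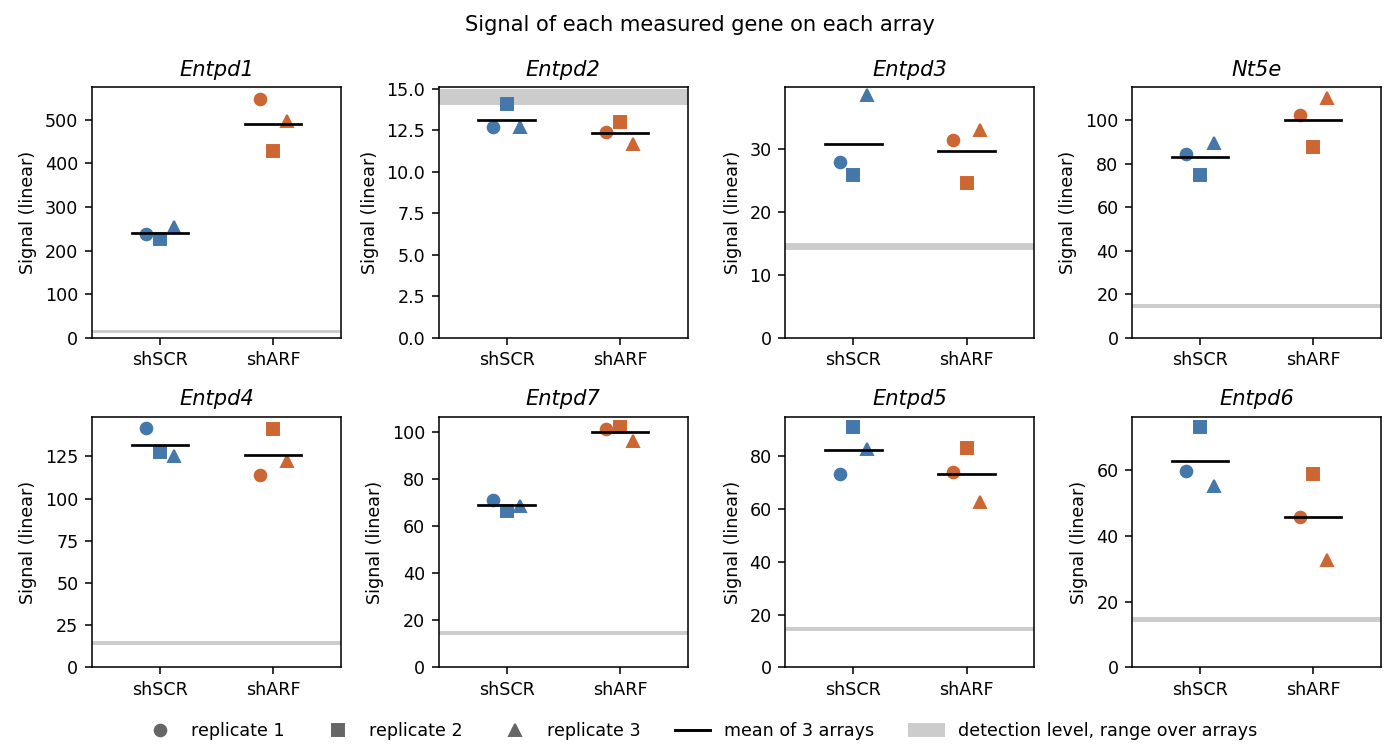
Linear signal of each of the 8 measured genes (vertical axes) on the 3 shSCR and 3 shARF arrays (horizontal axes). Symbols mark replicate numbers, black lines the means of 3 arrays and the grey band the detection levels of the 6 arrays. The groups are separate for Entpd1 and Entpd7, and Entpd2 lies at or under the detection level.

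Among the surface NTPDases, Entpd1 (probeset 10463070) encodes CD39, which takes ATP and ADP to AMP. It gave signals of 237, 228 and 253 in shSCR, listed here and throughout in the order of replicates 1, 2 and 3, and of 548, 428 and 497 in shARF. Every shARF array lay above every shSCR array, and replicate 2 was the lowest in both groups. The means were 239 ± 13.01 (SD, n = 3) and 491 ± 60.1. The log2 difference was 1.03 ± 0.099 (SE), with a 95% interval of 0.80 to 1.26, a 2.04-fold rise (limma, adjusted p = 0.00459). Entpd1 was number 45 by size among the 246 genes called higher, of which 46 rose at least 2-fold (0.304% of tested genes).

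Entpd2 (probeset 10470014) encodes an NTPDase that removes phosphate from ATP with little action on ADP. Its signals were 12.7, 14.1 and 12.7 in shSCR and 12.4, 13.01 and 11.6 in shARF. It exceeded the detection level on 1 of the 6 arrays, shSCR replicate 2, and there only at the level itself (both 14.1), so it was not tested and no fold is given. Entpd3 (probeset 10590306), a surface NTPDase between CD39 and the Entpd2 enzyme in its preference for ATP, gave 27.9, 25.8 and 38.5 in shSCR and 31.4, 24.6 and 33.0 in shARF. The groups overlapped, and the log2 difference was -0.04 with a 95% interval of -0.44 to 0.36 (limma, adjusted p = 0.919).

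Nt5e (probeset 10587639) encodes CD73, the enzyme that forms adenosine from AMP. It gave 84.2, 74.9 and 89.4 in shSCR against 102, 87.7 and 110.3 in shARF. The lowest shARF array, replicate 2, lay under the highest shSCR array, replicate 3, so the groups overlapped. The means were 82.8 ± 7.39 (SD, n = 3) and 100.1 ± 11.4. The log2 difference of 0.27 ± 0.105 (SE) had a 95% interval of 0.02 to 0.52 and did not pass over all genes (limma, unadjusted p = 0.0359, adjusted p = 0.209). Replicate 2 held the lowest value of Nt5e in both groups, as it did for Entpd1 and Entpd3.

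Whether Entpd1 and Nt5e changed by unequal amounts was tested on their log2 ratio within each array. Relative to the shSCR mean, that ratio lay between -0.04 and 0.07 on the shSCR arrays and between 0.64 and 0.89 on the shARF arrays. It was higher on all 3 shARF arrays, by 0.76 on average. An exact permutation test over the arrays, two-sided, gave p = 0.1, the smallest p that 3 against 3 arrays allow. The same comparison of the intracellular pair Entpd7 and Entpd4 gave a change of 0.61, with 0.46 to 0.76 on the shARF arrays and -0.06 to 0.06 on the shSCR arrays (exact permutation p = 0.1). These 2 comparisons were made after the calls were known, each with a called gene against one that did not pass, and both adjusted values were 0.1. Because the test cannot give a p under 0.1 here, it does not decide whether the changes were unequal. The ratios are given as a description.

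Of the intracellular NTPDases, Entpd7 rose and Entpd4 did not pass. Entpd7 (probeset 10463282) encodes an intracellular NTPDase that acts on nucleoside triphosphates. It gave 71.2, 66.5 and 68.3 in shSCR against 101, 102 and 96.2 in shARF. The lowest shARF array exceeded the highest shSCR array, and the spread within each group was small, with means of 68.7 ± 2.36 (SD, n = 3) and 99.7 ± 3.05. The log2 difference was 0.54 ± 0.060 (SE), with a 95% interval of 0.40 to 0.68, a 1.45-fold rise (limma, adjusted p = 0.00741). The call was lost when both replicate 2 arrays were left out, which leaves 2 arrays per group (0.50; limma, adjusted p = 0.0778).

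Entpd4 (probeset 10416199) encodes an NTPDase of the Golgi and lysosomal membranes. Its signals were 142, 128 and 125 in shSCR and 114, 141 and 122 in shARF. The highest shSCR array and the highest shARF array were nearly level, and the log2 difference was -0.07 with a 95% interval of -0.29 to 0.16 (limma, adjusted p = 0.726). The RefSeq gene table lists a neighbouring gene named Entpd4b on the same chromosome, and whether the probeset reads it too was not tested.

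Neither of the NTPDases of the secretory lumen passed. Entpd5 (probeset 10401454) encodes a UDPase of the endoplasmic reticulum that supports the folding of glycoproteins. It gave 73.3, 90.95 and 82.7 in shSCR and 74.0, 82.9 and 62.7 in shARF. The groups overlapped, with a log2 difference of -0.17 (95% interval -0.46 to 0.11; limma, adjusted p = 0.461). Entpd6 (probeset 10476952), an NTPDase of the Golgi that is also released, gave 59.8, 73.3 and 55.3 in shSCR and 45.9, 58.8 and 32.8 in shARF. Its means were 62.8 ± 9.34 (SD, n = 3) and 45.8 ± 13.03, and the highest shARF array, replicate 2, lay above the lowest shSCR array. The log2 difference of -0.48 ± 0.209 (SE) had a 95% interval of -0.97 to 0.01 (limma, adjusted p = 0.247). Entpd5 and Entpd6 had their highest value on replicate 2 in both groups, where Entpd1, Entpd3 and Nt5e had their lowest. Over all tested probesets, deviations from the group mean had a correlation of only 0.052 between shSCR replicate 2 and shARF replicate 2.

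**Figure D2:**
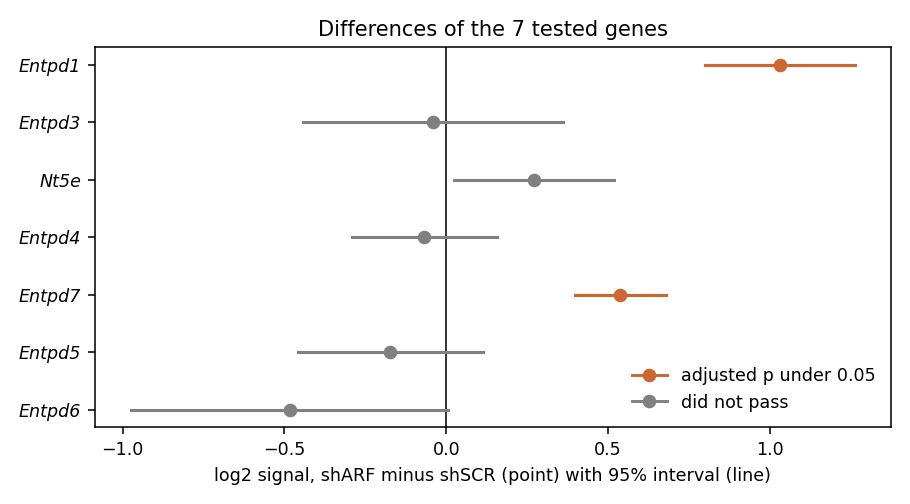
Log2 difference between shARF and shSCR (horizontal axis) for the 7 tested genes, with the 95% interval from limma as a line. The intervals of Entpd1 (0.80 to 1.26) and Entpd7 (0.40 to 0.68) lie apart from 0, as does that of Nt5e (0.02 to 0.52), which did not pass over all genes.

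**Figure D3:**
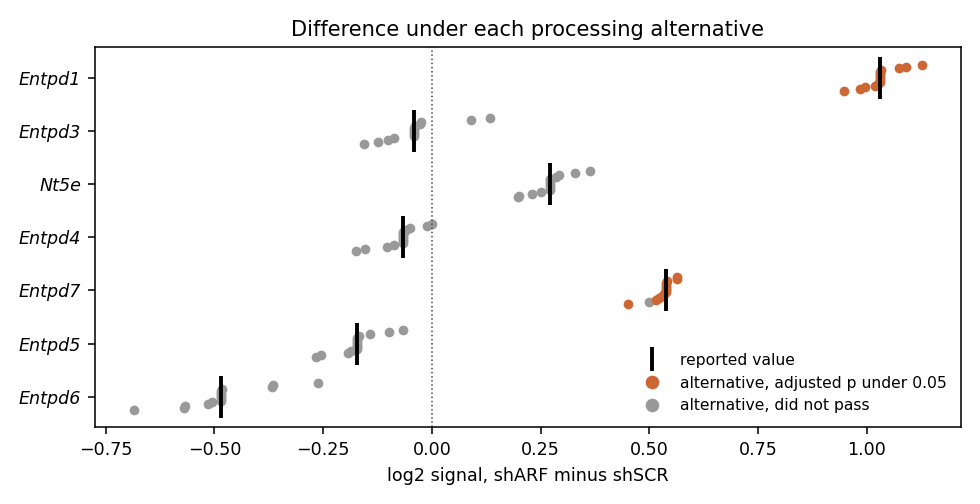
Log2 difference between shARF and shSCR (horizontal axis) for each tested gene under every processing alternative (points) and as reported (bar). Entpd1 stayed between 0.95 and 1.13 and Entpd7 between 0.45 and 0.56, while values of Entpd3 and Entpd4 fell on both sides of 0.

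Profiles over the 6 arrays were compared by the root mean square difference of centred log2 values. Genes with Gm, LOC or Rik names, olfactory and vomeronasal receptor genes and small RNAs were left out. Nearest to Entpd1 were Gng11, Nptx1 and Krt18, at 0.107, 0.113 and 0.133. Gng11 encodes a G protein gamma subunit and rose from 396 ± 7.2 (SD, n = 3) to 755 ± 47.2 (limma, adjusted p = 0.00212). Nptx1, a secreted neuronal pentraxin, rose from 88.2 ± 12.5 to 173 ± 35.5 (limma, adjusted p = 0.0294). Krt18, a keratin of simple epithelia, gave 136, 116 and 134 in shSCR and 317, 189.6 and 244 in shARF (limma, adjusted p = 0.037). Nptx1 and Krt18 shared with Entpd1 the lowest value on replicate 2 in both groups. Nearest to Entpd7 were Lonrf1, Spata6 and Cspg4, at 0.036, 0.038 and 0.044. Cspg4, the proteoglycan NG2, rose from 120 ± 9.01 to 178 ± 3.4 (limma, adjusted p = 0.00963), and Lonrf1 and Spata6 rose by 0.48 and 0.51 on the log2 scale (limma, adjusted p = 0.0114 and 0.0123). Likeness over 6 arrays in 2 groups rests mainly on the group difference, and it is given as a description.

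**Figure D4:**
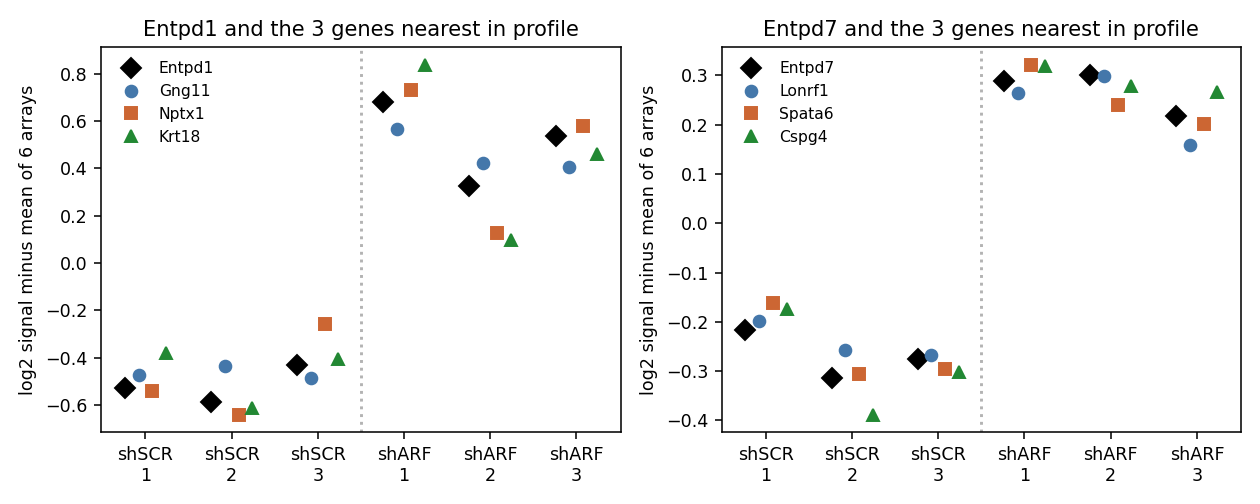
Log2 signal minus the mean of the 6 arrays (vertical axes) on each array (horizontal axes) for Entpd1, Entpd7 and the 3 genes nearest to each. All 8 genes are below their mean on the shSCR arrays and above it on the shARF arrays, and shARF replicate 2 is the lowest of its group for Entpd1, Nptx1 and Krt18.

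Entpd1 is also known from leukocytes and endothelium, so the markers of other cell types were read beside it. Of 9 measured macrophage markers 5 were tested and 0 called. Adgre1, Csf1r, Itgam and Lyz2 were at or under the detection level on all 6 arrays, and the summed signal was 205 to 233 in shSCR and 202 to 226 in shARF. Cd68 and Mrc1 were lower on every shARF array (log2 differences of -0.36 and -0.29; limma, adjusted p = 0.109 and 0.0999). The other tested macrophage markers, Aif1, Cd14 and Fcgr1, differed by 0.20, 0.12 and 0.03, with overlapping groups. Of 8 measured lymphocyte markers 2 were tested and 0 called, with Ptprc, Cd3g, Cd79a, Il7r and Ms4a1 at or under the detection level throughout and sums of 107 to 108 and 103 to 117. Cd8a was higher on every shARF array (0.24; limma, adjusted p = 0.197), and Cd3e, the other tested marker, differed by -0.17 (limma, adjusted p = 0.352). Of 7 measured endothelial markers 5 were tested and 0 called, with Emcn and Tek at or under the detection level and sums of 119.98 to 126 and 117 to 125. The endothelial cadherin gene Cdh5 gave 19.8, 19.3 and 21.9 in shSCR and 23.6, 24.6 and 27.9 in shARF. It was higher on every shARF array and missed the threshold (0.32; limma, adjusted p = 0.0997). The other tested endothelial markers, Kdr, Pecam1, Tie1 and Vwf, differed by -0.07, -0.03, -0.07 and -0.11, and Vwf was lower on every shARF array. Of 7 measured epithelial markers 6 were tested and 1 called, Krt18 (0.93, log2), or 16.7% beside 4.01% of all tested genes. Cdh1 was at or under the detection level on all arrays. The epithelial sum was 258 to 298 in shSCR and 362 to 503 in shARF. Krt18 and its partner Krt8 gave the most to it, with means of 129 and 57.1 in shSCR and 250 and 96.5 in shARF. For Krt8 the log2 difference of 0.74 missed the threshold (limma, adjusted p = 0.0583). Krt5 was also higher on every shARF array (0.27; limma, adjusted p = 0.124). The other tested epithelial markers, Cldn4, Epcam and Krt14, differed by -0.23, 0.14 and 0.19, with overlapping groups. The part of these markers in the rise of Entpd1 was not tested.

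The 7 lists around the family held 75 gene symbols, some of them an older and a newer name of the same gene. Of these symbols 62 had a probeset and 49 were tested, of which 0 rose, 5 fell and 44 did not pass. That is 10.2% called, against 4.01% of all tested genes, and the median log2 difference was 0.00, beside -0.01 over all. The lists were chosen with earlier results of these data known, so the called shares given for them here and below are descriptions only. The 4 adenosine receptor genes were not analysed here. None of the 9 tested P2 receptor genes passed. P2rx4, an ATP-gated channel, gave 106, 99.3 and 90.5 in shSCR and 119.2, 122 and 123 in shARF, a log2 difference of 0.30 (limma, adjusted p = 0.0739). P2rx7, the ATP channel of inflammatory signalling, and P2rx1 differed by 0.18 and 0.20 (limma, adjusted p = 0.36 and 0.388).

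Of 9 tested genes for other surface nucleotidases and phosphatases, 1 fell, 0 rose and 8 did not pass. That is 11.1% called, beside 4.01% of all tested genes. Enpp5, of the nucleotide pyrophosphatase family, gave 106, 111 and 131 in shSCR and 87.3, 79.9 and 69.6 in shARF. The groups did not overlap, and the log2 difference was -0.56 ± 0.112 (SE; limma, adjusted p = 0.0451). The call was lost whichever single array was left out (limma, adjusted p from 0.0634 to 0.128). Its relative Enpp4 gave 86.5, 80.5 and 85.2 against 71.1, 68.7 and 56.6, a log2 difference of -0.37 that missed the threshold (limma, adjusted p = 0.0914). Acpp, an acid phosphatase that can form adenosine from AMP, and Bst1, a surface enzyme of NAD breakdown, differed by 0.36 and 0.12 (limma, adjusted p = 0.43 and 0.379).

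Inside the cell, 0 of 11 tested genes of nucleotidases and adenosine metabolism passed in limma, while 1 was lower at an unadjusted p under 0.05 and 0 higher, beside 13.4% of all tested genes lower and 8.76% higher. That gene was Ada, adenosine deaminase, which turns adenosine into inosine. It gave 130.1, 123 and 134 in shSCR and 95.2, 111 and 96.7 in shARF, with no overlap between the groups and a log2 difference of -0.36 ± 0.078 (SE; limma, adjusted p = 0.0571). The AMP deaminase gene Ampd3 differed by 0.15 and the adenosine kinase gene Adk by -0.17 (limma, adjusted p = 0.297 and 0.369). Of 8 tested genes of nucleoside transport and ATP release 0 passed, with a median of -0.13. The equilibrative nucleoside transporter genes Slc29a2, Slc29a3 and Slc29a4 differed by -0.19, -0.17 and -0.20 (limma, adjusted p = 0.238, 0.303 and 0.276).

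The lysophosphatidic acid genes were included because the product of Enpp2, autotaxin, makes that lipid. Of 8 tested, 3 fell, 0 rose and 5 did not pass. That is 37.5% called, beside 4.01% of all tested genes, or 2.38% called lower. Plpp1 and Plpp3 encode surface phosphatases that break the lipid down. Plpp1 gave 485, 454 and 475 in shSCR and 329, 352 and 341 in shARF, a fall of 1.38-fold (limma, adjusted p = 0.011). Plpp3 gave 914, 869.8 and 845 against 682, 542 and 579, a fall of 1.46-fold (limma, adjusted p = 0.0268). In both genes every shARF array lay under every shSCR array, where 28.6% of all tested genes had groups that did not overlap in either direction.

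Lpar6, a receptor for the lipid, gave 208, 217 and 213 in shSCR and 176, 168 and 168 in shARF, a fall of 1.25-fold (limma, adjusted p = 0.0311). Lpar1, another receptor, gave 527, 526 and 524 against 632, 584 and 612, higher on every shARF array, and missed the threshold (log2 difference 0.21; limma, adjusted p = 0.104). Lpar4 and Lpar3 differed by 0.14 and 0.13 (limma, adjusted p = 0.407 and 0.521). The Plpp1 call was lost without shSCR replicate 1 or 3, that of Plpp3 without 5 of the arrays in turn and that of Lpar6 without each of the 6 (limma, highest adjusted p = 0.056, 0.0988 and 0.108).

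The product of Enpp1 makes pyrophosphate, and of 5 tested genes of pyrophosphate and phosphate handling 1 fell and 4 did not pass. That is 20% called, beside 4.01% of all tested genes. The phosphate transporter gene Slc20a2 gave 458, 497 and 471 in shSCR and 398, 372 and 363 in shARF, a fall of 1.26-fold (limma, adjusted p = 0.0424), which was lost without each of the 6 arrays in turn (limma, highest adjusted p = 0.131). Its relative Slc20a1, the pyrophosphate exporter gene Ank and the transporter gene Abcc6 differed by 0.08, 0.10 and 0.11 (limma, adjusted p = 0.668, 0.651 and 0.716).

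**Figure D5:**
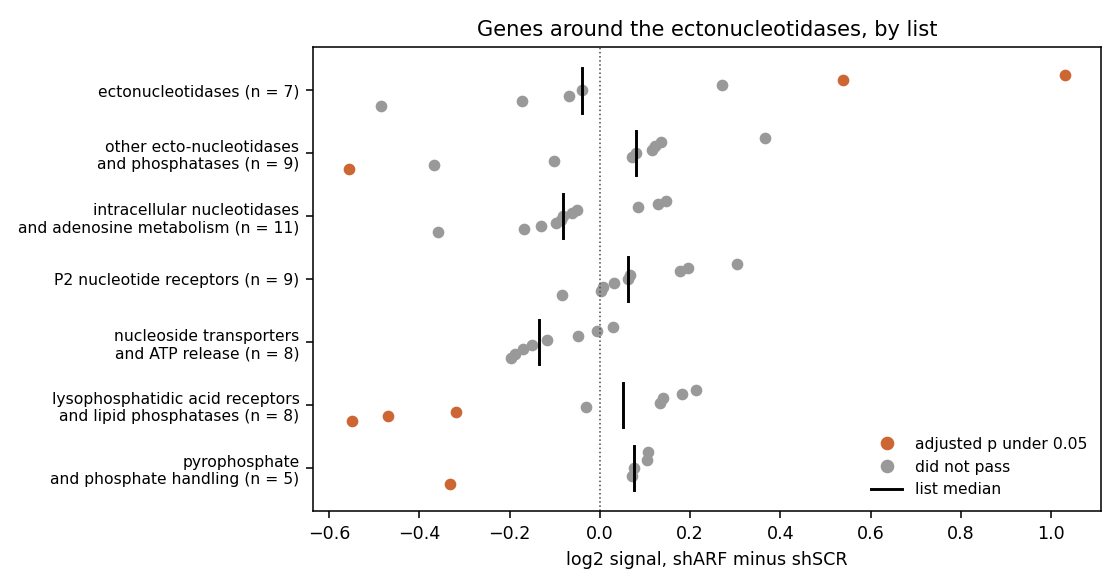
Log2 difference between shARF and shSCR (horizontal axis) for the 7 tested ectonucleotidase genes and for the tested genes of 6 lists around them, with list medians as black bars. Orange points passed the test: 2 higher among the ectonucleotidases, and lower ones among the other lists, Enpp5, Plpp1, Plpp3, Lpar6 and Slc20a2.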

How the data were processed

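The authors deposited linear intensities, made with RMA (background correction, quantile normalization and probe summary) in Affymetrix Expression Console on core probesets, per the submitters' processing notes. Quantile normalization hides a change common to most genes, and folds of dim genes are understated. The tool's version and the array's genome build are not given in the sources used here. Values were turned to log2, and a two-sided limma fit (version 3.58.1, R 4.3.3, lmFit with eBayes) compared 3 shARF with 3 shSCR arrays over 20310 tested probesets, with Benjamini-Hochberg adjustment over all of them. A gene was its brightest tested probeset. The design text names SAM, run here as an alternative with a symmetric cutoff. The script was tested on simulated data. The genes and lists were chosen with earlier results of these data known. Outside the family and Cdkn2a, the naming rule took every called list gene, up to 3 others per list with the smallest p, and the 3 nearest profiles. Cell type markers and the called genes between Entpd1 and Entpd7 were named after their values were seen. Promoter letters come from RefSeq.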

Additional observations from a re-analysis of the deposited data

How the results depend on the processing

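The number of family genes called, 2, was the same under 14 of 15 alternatives, and it was 2 on leaving out each array in turn. With both replicate 2 arrays left out it was 1, Entpd1, and Entpd7 lost its call. Entpd1 ranged from 0.95 to 1.13 on the log2 scale. On leaving out single arrays, Entpd3 ranged from -0.16 to 0.13 and Entpd4 from -0.15 to 0.0013, so both changed sign without passing. Nt5e and Entpd6 kept their direction and passed in 0 alternatives. The count of genes called around the family, 5, was 2 with no filter, 9 with a filter at the 50th percentile, 9 with eBayes trend and robust, 0 with both replicate 2 arrays left out and 0 to 2 on leaving out single arrays. Over all genes the count of 607 was 372 with no filter, 996 with the stricter filter, 978 with 16 added before log2, 1281 with trend and robust, 997 in SAM, 137 without both replicate 2 arrays (59.1% of them higher, against 40.5%) and 150 to 330 on leaving out single arrays. The labels do not say whether the replicate numbers pair the samples. Deviations from the group mean were hardly correlated between arrays of the same number (0.078, 0.052 and 0.00062), which does not settle it. With the replicate block 336 genes, 2 family genes and 2 genes around the family were called. Signal close to the detection level limits Entpd2, and 3 arrays per group limit the rest.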

Other observations

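Entpd1 and Entpd7, the called members of the family, both lie on chromosome 19 in the RefSeq table (GRCm38.p6), and the genes between them were read after these calls were seen. Of 35 tested genes between them 1 was called higher and 1 lower, or 5.71%, beside 4.01% of all tested genes, and the median log2 difference was 0.00. Morn4 rose 1.32-fold, from 188 ± 16.2 (SD, n = 3) to 248 ± 13.3 (limma, adjusted p = 0.0477). Rrp12, which encodes a factor of ribosome assembly, fell from 234 ± 2.19 to 188 ± 7.14 (limma, adjusted p = 0.0347).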
